A study of Petunia x hybrida with 7 samples.

Results

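The petunia genome assembly behind these data consists of 7 long scaffolds and many smaller ones. The sites described here are all binding peaks of the transcription factor PhDEF that lie outside HiC_scaffold_1 to HiC_scaffold_7. They were taken by scaffold name alone, without regard to any measured value, and number 1466 of the 9626 peaks listed in the series. Of these, 584 were in wico petals, 435 in star petals and 447 in wild-type petals. Peaks of different genotypes that shared at least 1 bp were merged, which gave 990 regions on 810 scaffolds. The other 5073 of the 6063 merged regions lay on the 7 long scaffolds.

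PhDEF is a B-class MADS-domain protein. Proteins of this class act in pairs, a DEFICIENS-type with a GLOBOSA-type partner, and give petals their identity. MADS-domain dimers bind short A/T-rich DNA elements named CArG boxes. A petal is built from an epidermis, which in petunia carries the pigment of the limb, and an inner mesophyll, and chimeric plants can carry different alleles in these layers.

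Binding was measured by chromatin immunoprecipitation and sequencing (ChIP-seq) with an antibody against PhDEF on whole petals, tube and limb together, of cultivar R27 at flower stage 8. The wico petals have a wild-type epidermis over a mesophyll with mutant phdef, the star petals have an epidermis with mutant phdef over a wild-type mesophyll, and the wild-type petals carry functional PhDEF in both layers. All material was fixed with disuccinimidyl glutarate (2.5 mM for 1 h) and then formaldehyde (1% for 5 min). Each genotype had 2 immunoprecipitated libraries, and 1 input library came from wild-type petals. Because whole petals were used, a smaller number of nuclei with PhDEF and less PhDEF bound per nucleus cannot be told apart in a chimera. The authors combined the 2 libraries of a genotype into 1 list of reproducible peaks, so that there is 1 list per genotype and no test between genotypes. Read counts are not given, and the depth behind a peak is unknown. Shares carry exact Clopper-Pearson 95% intervals and differences of shares carry Newcombe 95% intervals. Both cover counting error only and are not adjusted for the number of comparisons.

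The name "short" holds for these scaffolds only relative to the long ones. The largest peak end listed on a scaffold, a lower bound of its length, ran from 189 to 760498 bp over the 810 scaffolds, with a median of 11706.5 bp. On the 7 long scaffolds the same value ran from 112396697 to 189392021 bp. Whether the smaller scaffolds belong to a chromosome is not stated in the labels. No genome sequence or annotation was used here and the lists give positions alone, so neither genes nor bound sequences are named.

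Star petals had the largest part of their list on the smaller scaffolds. The share was 13.7% in wico (95% interval 12.6 to 14.7%), 19.6% in star (18.0 to 21.3%) and 14.3% in the wild type (13.1 to 15.5%). The 584 wico peaks were spread over 494 scaffolds, the 435 star peaks over 384 and the 447 wild-type peaks over 390. In width the peaks differed little from those on the long scaffolds. The median width was 393 bp against 386 bp on the long scaffolds in wico, 376 bp against 373 bp in star and 421 bp against 425 bp in the wild type, and the intervals of each pair of medians overlapped.

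Strength was read from the summed signal that the authors list for each peak, ranked inside the whole list of its genotype as a percentile from 0 to 100, where 100 is the strongest. The scaling of this signal is not described in the sources used here, and its level was therefore not compared between genotypes. The median percentile of peaks on the smaller scaffolds was 45.8 in wico (95% interval 41 to 51.5), 50.4 in star (45.6 to 56.8) and 48.6 in the wild type (43.7 to 55.4). Peaks on the long scaffolds had medians of 50.4, 50.0 and 50.1 in the same order of genotypes, each inside the interval of the smaller scaffolds. Of the strongest 1% of each list, peaks on the smaller scaffolds made up 12 of 42 in wico, 8 of 22 in star and 10 of 31 in the wild type. The share of smaller-scaffold peaks in this strongest 1% exceeded that of long-scaffold peaks by 1.24 points in wico (0.301 to 2.76), 1.05 points in star (0.00529 to 2.83) and 1.46 points in the wild type (0.358 to 3.31). The strongest 3 peaks of each list were among these smaller-scaffold peaks and lay in the same regions in every genotype. These differences are therefore not separate results, and they were not computed without those peaks. In the strongest 10% the differences of 1.69, 2.98 and 1.88 points had intervals that included 0. In the weakest 10% the difference was 2.91 points in wico (0.278 to 5.98), where 12.5% of smaller-scaffold peaks stood against 9.59% of long-scaffold peaks, and 1.03 points in star (-1.93 to 4.55) and 2.70 points in the wild type (-0.267 to 6.23).

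Sharing between genotypes was examined next. Of the 990 regions, 126 were found in all 3 genotypes, a share of 12.7% (10.7 to 15.0%), against 15.5% of the 6063 regions of the series and 16.0% of regions on the long scaffolds (15.0 to 17.1%). Another 221 regions were found in exactly 2 genotypes, and 643 regions, or 64.9% (61.9 to 67.9%), in a single one. Single-genotype regions made up 55.4% on the long scaffolds (54.0 to 56.8%), a difference of 9.56 points (6.24 to 12.8). In 3 regions a genotype contributed more than 1 peak.

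Among the single-genotype classes, star alone took a larger share of the regions on the smaller scaffolds. Regions held by star alone numbered 222, or 22.4% (19.9 to 25.2%), against 13.9% in the series and 12.2% on the long scaffolds (11.3 to 13.2%), which is a difference of 10.2 points (7.55 to 13). Regions held by wico alone numbered 281, or 28.4%, against 30.4% in the series, with a difference from the long scaffolds of -2.39 points (-5.40 to 0.762). Regions held by the wild type alone numbered 140, or 14.1%, against 12.7% in the series, with a difference of 1.74 points (-0.495 to 4.21). For these last classes the interval of the difference included 0. Counted as a share of each list's own peaks, those found in no other genotype were more frequent on the smaller scaffolds in every genotype. They made up 48.1% against 42.3% on the long scaffolds in wico, a difference of 5.84 points (1.50 to 10.2), 51% against 34.8% in star, 16.2 points (11 to 21.4), and 31.3% against 23.4% in the wild type, 7.91 points (3.47 to 12.6). Within 10 groups of equal size along each ranking, pooled by the Mantel-Haenszel method, the differences were 2.84 points (-0.850 to 6.53) in wico, 16.9 points (12.2 to 21.6) in star and 6.16 points (2.16 to 10.2) in the wild type.

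Among regions held by exactly 2 genotypes, the pairing of wico with the wild type was scarcer on the smaller scaffolds. It accounted for 135 regions, or 13.6% (11.6 to 15.9%), against 20.5% in the series and 21.8% on the long scaffolds (20.7 to 22.9%), a difference of -8.15 points (-10.5 to -5.61). The pairing of star with the wild type, which keeps PhDEF in the mesophyll of both, accounted for 46 regions, or 4.65%, against 3.0% in the series, and the difference from the long scaffolds was 1.97 points (0.723 to 3.52). The pairing of wico with star, without the wild type, accounted for 40 regions, or 4.04%, against 4.09% in the series. Its difference from the long scaffolds of -0.06 points had an interval from -1.27 to 1.44.

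**Figure D1:**
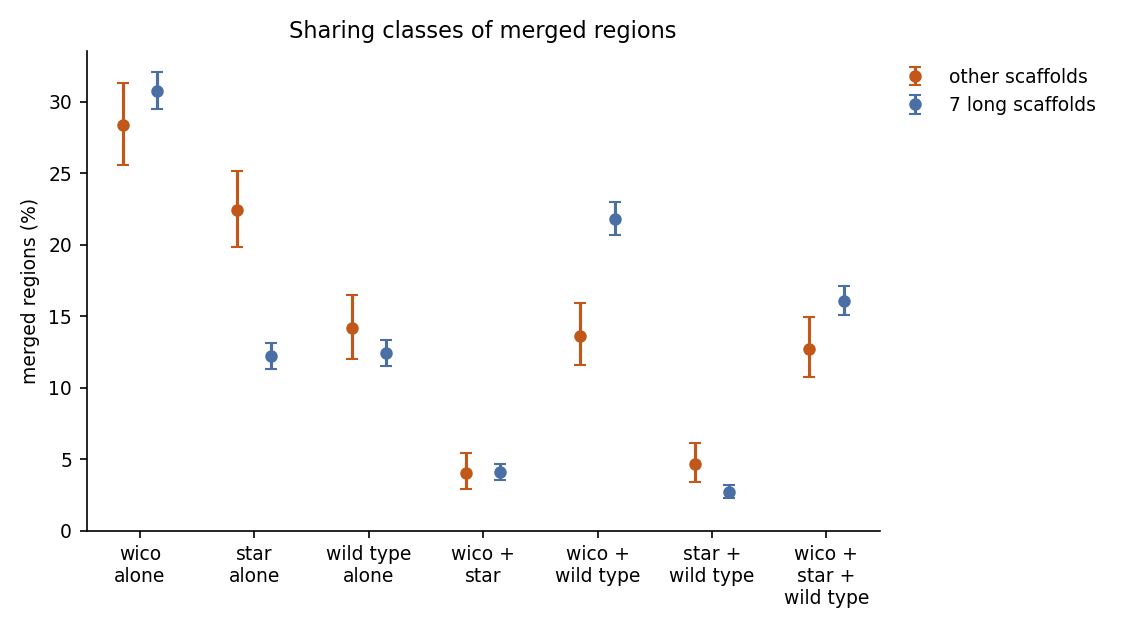
Share of merged regions (%, y axis) in each of the 7 sharing classes (x axis), for scaffolds outside the 7 long ones (orange, n = 990 regions) and the 7 long scaffolds (blue, n = 5073 regions). Points are shares and bars are exact 95% intervals for counting error; star alone stands at 22.4% against 12.2%, and wico with the wild type at 13.6% against 21.8%.

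Counted per peak, star peaks on the smaller scaffolds were found less often in either other genotype. A wico peak overlapped 166 of the 435 star peaks, or 38.2% (33.6 to 42.9%), against 53.7% of all star peaks and 57.5% of those on the long scaffolds (55.2 to 59.8%). The difference was -19.3 points (-24.3 to -14.1). A wild-type peak overlapped 173 of them, or 39.8% (35.1 to 44.5%), against 50.8% of all star peaks and 53.5% on the long scaffolds (51.1 to 55.8%), a difference of -13.7 points (-18.7 to -8.47). Because overlap depends on rank, both differences were also taken inside 10 groups of equal size along the star ranking and pooled by the Mantel-Haenszel method. They were then -20.1 points (-24.8 to -15.4) for wico and -14.6 points (-19.2 to -9.93) for the wild type, and the smaller scaffolds had the lower share in 10 of 10 rank groups in both comparisons.

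Wild-type peaks on the smaller scaffolds were likewise less often found in wico, while their overlap with star depended on the setting. A wico peak overlapped 261 of the 447 wild-type peaks, or 58.4% (53.7 to 63.0%), against 69.7% of all wild-type peaks and 71.5% on the long scaffolds (69.8 to 73.2%). The difference was -13.1 points (-18.1 to -8.34), and -11.5 points (-15.6 to -7.37) within rank groups, with the lower share on the smaller scaffolds in 10 of 10 groups. A star peak overlapped 172 of them, or 38.5% (33.9 to 43.2%), against 35.8% of all wild-type peaks and 35.4% on the long scaffolds, and the difference of 3.09 points had an interval from -1.67 to 8.01. In the upper 50% of each list this difference was 7.57 points (0.642 to 14.6), a higher share on the smaller scaffolds. The gap between the chimeras was therefore smaller here than on the long scaffolds. The share overlapped by wico exceeded the share overlapped by star by 19.9 points among wild-type peaks on the smaller scaffolds (95% Wald interval for paired shares 14.3 to 25.5) and by 36.1 points on the long scaffolds (34.0 to 38.3). The wico list held 4276 peaks and the star list 2216, and list length enters these gaps. With lists of equal length, wico overlapped 61.2% and star 46.8% on the smaller scaffolds, against 68.6% and 43.2% on the long ones.

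Wico peaks differed less between the scaffold classes. A wild-type peak overlapped 263 of the 584, or 45% (40.9 to 49.2%), against 51.1% of all wico peaks and 52.1% on the long scaffolds, a difference of -7.05 points (-11.4 to -2.69). This difference was 1.17 points (-4.52 to 6.81) with peaks at a global irreproducible discovery rate of at most 0.02, and 1.30 points (-5.00 to 7.40) in the upper 50% of each list. Both settings shorten the wico and the wild-type list at once. Within rank groups of the full lists it was -4.07 points (-7.69 to -0.449), with the lower share on the smaller scaffolds in 8 of 10 groups. A star peak overlapped 166 wico peaks, or 28.4% (24.8 to 32.3%), against 27.8% of all wico peaks and 27.7% on the long scaffolds, a difference of 0.743 points (-3.06 to 4.79). This difference was 8.01 points (2.82 to 13.5) at a global irreproducible discovery rate of at most 0.02 and 7.23 points (1.39 to 13.4) in the upper 50% of each list. The other 3 deficits kept their sign in each of 8 other settings. Over these, the difference ranged from -20.1 to -14.8 points for star peaks with a wico peak, from -15.6 to -10.9 points for star peaks with a wild-type peak and from -14.8 to -6.67 points for wild-type peaks with a wico peak.

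**Figure D2:**
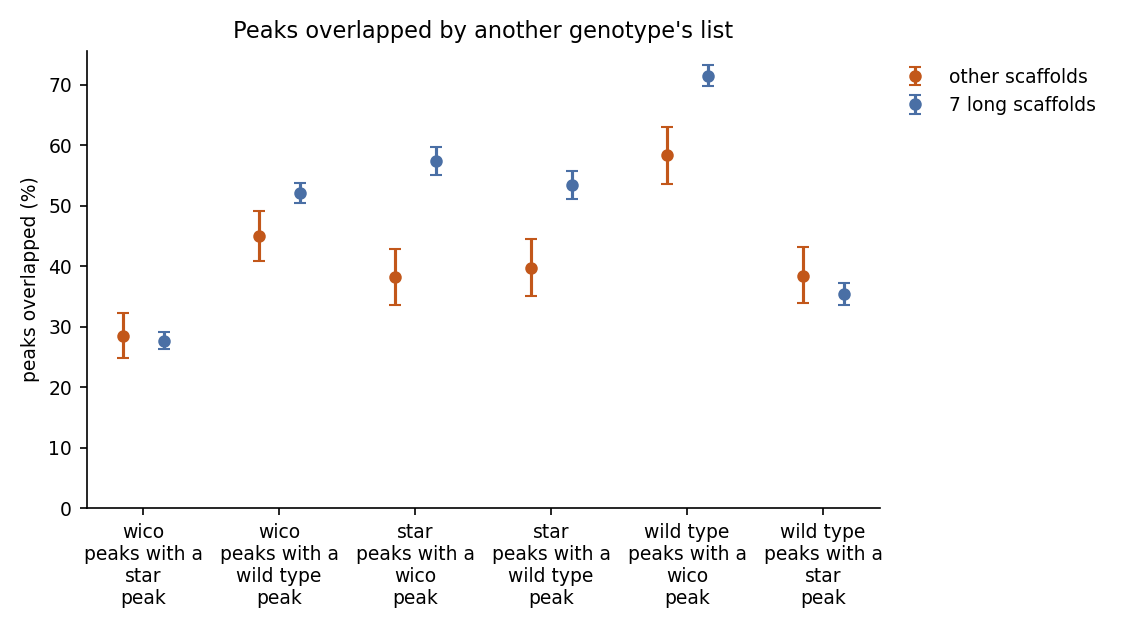
Share of peaks of a list (%, y axis) that share at least 1 bp with a peak of another genotype (x axis, the 6 ordered pairs), outside the 7 long scaffolds (orange) and on them (blue). Points are shares and bars exact 95% intervals for counting error; star peaks with a wico peak stand at 38.2% against 57.5%, while wild-type peaks with a star peak stand at 38.5% against 35.4%.

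Some of the star peaks without a counterpart were strong. Of the 54 star peaks on the smaller scaffolds that were in the strongest 10% of the star list, 14 were found in no other genotype, or 25.9% (15.0 to 39.7%), against 7 of 168 on the long scaffolds, or 4.17% (1.69 to 8.40%). The same count was 5 of 67 against 14 of 361 in wico and 1 of 52 against 4 of 262 in the wild type. The 14 star peaks stood on 10 scaffolds, and 10 of them lay on scaffolds where no other genotype had any peak. The list names state that input was removed, and some listed intervals are shorter than those found in the replicates, here called shortened. This applied to 8 of the 14, and the 14 came from 11 peaks of the replicates, since pieces of a divided peak are listed separately. Without all shortened peaks the shares were 6 of 41, or 14.6% (5.57 to 29.2%), against 2 of 158, or 1.27% (0.154 to 4.50%).

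Sites found in a single genotype ranked lower than sites found in all, in each genotype. In wico the median percentile was 23.5 for sites in that list alone (20.2 to 27.7, n = 281) and 82.0 for sites in all lists (74.1 to 88.0, n = 128). In star the medians were 33.6 (28.1 to 42.2, n = 222) and 75.4 (69.5 to 81.9, n = 126), and in the wild type 23.3 (16.0 to 28.1, n = 140) and 77.7 (71.5 to 85.3, n = 126). The long scaffolds showed the same order, with medians for sites in 1 and in all lists of 29 and 80.3 in wico, 29.3 and 67.2 in star, and 19.6 and 76.2 in the wild type. On the smaller scaffolds, sites in exactly 2 lists lay between, with medians of 55.7, 50.4 and 51.5 in the same order of genotypes. The ranges overlapped widely all the same: single-genotype sites reached percentile 96.9 in wico, 99.1 in star and 98.9 in the wild type, while sites found in all lists went down to 1.22, 3.70 and 12.9. The share of single-genotype peaks that stood in the upper 50% of their list was 22.8% in wico (18.0 to 28.1%), 34.2% in star (28 to 40.9%) and 17.1% in the wild type (11.3 to 24.4%). On the long scaffolds the values were 24.2% in wico (22.1 to 26.4%), 24.8% in star (21.5 to 28.4%) and 16.1% in the wild type (13.3 to 19.2%).

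Single-genotype sites were also narrower in wico and the wild type. Their median width was 350 bp against 446.5 bp for sites in all lists in wico, and 385 bp against 471 bp in the wild type, with intervals that did not overlap. In star the medians were 372.5 bp and 380 bp, and the intervals overlapped. The long scaffolds showed the same pattern, with 350 against 437 bp in wico, 387 against 461 bp in the wild type and 386 against 379 bp in star. On the smaller scaffolds, shortened intervals were more frequent at sites in 1 list than in all. The shares were 9.61% against 5.47% in wico, 12.6% against 3.97% in star and 10% against 6.35% in the wild type. Widths are not given within rank groups or without shortened peaks. The intervals found in the 2 replicate columns shared a median of 68.2% of their joint length at wico sites in 1 list and 80.4% at those in all lists. In star these values were 68.7% and 76.3%, and in the wild type 71.1% and 74.8%. On the long scaffolds they were 72.0% and 82.2% in wico, 64.9% and 75.7% in star, and 64.4% and 75.3% in the wild type. The replicate intervals thus shared more of their length at sites in all lists, on the smaller scaffolds with the widest gap in wico. Sites in exactly 2 lists did not always lie between, with 74.2% in wico, 78.5% in star and 70.8% in the wild type. Agreement of signal showed no such rise on the smaller scaffolds. At wico sites the log2 replicate ratio deviated from the list median by a median of 0.183 in 1 list and 0.200 in all. The values were 0.160 and 0.210 in star, and 0.293 and 0.334 in the wild type. The distance between the summits of overlapping peaks had a median close to that on the long scaffolds: 22 against 19 bp for wico with the wild type, 19.5 against 19 bp for star with the wild type and 19 against 20 bp for wico with star.

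**Figure D3:**
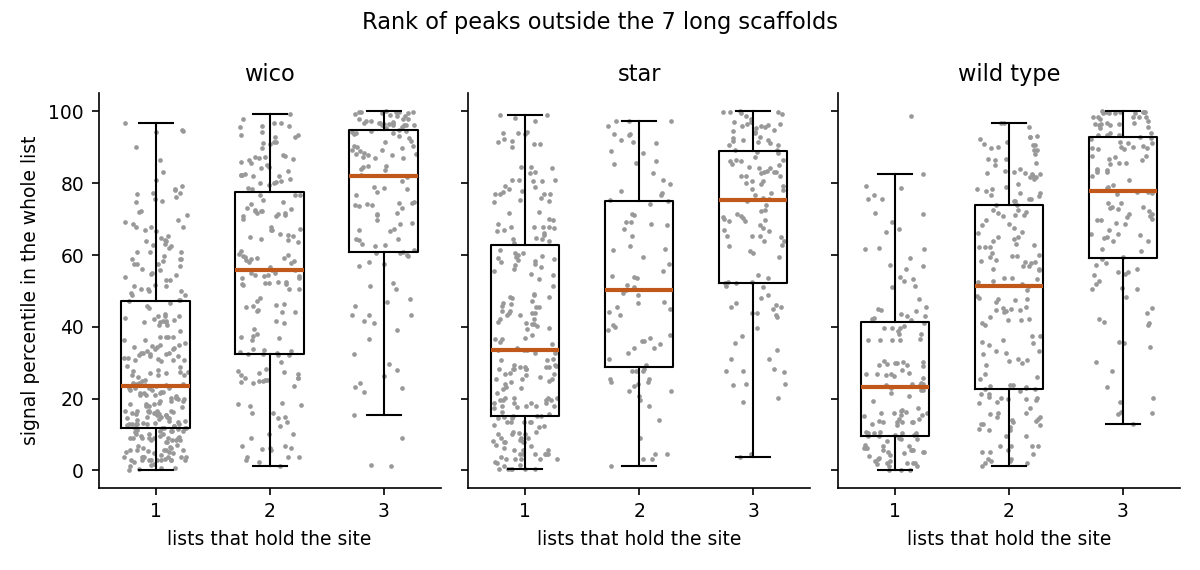
Signal percentile in the whole list (y axis) of each peak outside the 7 long scaffolds, by the number of genotypes that hold the site (x axis), for wico, star and the wild type. Grey points are peaks, boxes span the quartiles and orange lines are medians, which stand at 23.5 and 82.0 in wico, 33.6 and 75.4 in star and 23.3 and 77.7 in the wild type for sites in 1 and in all 3 lists.

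At the 126 regions found in all genotypes, rank was more alike between wico and the wild type than between star and either. Across these regions Spearman's rho of the percentiles was 0.82 for wico with the wild type, 0.58 for star with the wild type and 0.56 for wico with star. These values describe regions on shared libraries and are given without a p. No such value is given for the long scaffolds. The replicate columns themselves were least alike in star, with a rho over all smaller-scaffold peaks of 0.63, against 0.67 in the wild type and 0.78 in wico. The difference in percentile had an SD across regions of 15.9 points for wico minus the wild type, 23.7 for star minus the wild type and 24.0 for wico minus star, with medians of 0.32, -0.62 and 2.54 points. Of the 126, 46 stood above percentile 90 in wico, 30 in star and 39 in the wild type.

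The 5 regions with the highest wild-type signal among those in all genotypes are given with the signals of both replicates, whose columns do not name the library. The region at positions 1 to 276 of HiC_scaffold_45804 had replicate signals of 37.5 and 41.4 in wico, 36.1 and 41.7 in star, and 39.9 and 39.0 in the wild type. The region at positions 1 to 267 of HiC_scaffold_48926 had 38.8 and 42.9 in wico, 37.6 and 42.8 in star, and 39.7 and 38.5 in the wild type. These filled the first and second ranks of all 3 lists. The region at positions 4 to 339 of HiC_scaffold_34455 had 31.1 and 34.7 in wico, 27.4 and 33 in star, and 32.4 and 29.6 in the wild type, and stood at rank 3 in all of them. A clear step followed, since the fourth signal of the list was 50.6 against 65.7 at rank 3 in wico, 33.8 against 60.4 in star and 42.1 against 62.0 in the wild type.

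The other members of this set had a lower rank in star than in the rest, in lists of unlike length. The region at positions 731 to 1367 of HiC_scaffold_1324 had replicate signals of 21.5 and 21.5 in wico, 7.84 and 10.4 in star, and 12.2 and 21 in the wild type. It was rank 5 in wico and rank 6 in the wild type but rank 77 in star, at percentiles of 99.9, 99.8 and 96.6. Its wild-type replicate values differed more than those of wico or star. The region at positions 6 to 694 of HiC_scaffold_1687 had 20.1 and 17.5 in wico, 10.8 and 12.1 in star, and 13.7 and 19.2 in the wild type, at ranks 9, 17 and 7. Its percentiles of 99.8, 99.3 and 99.8 differed little.

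Few peaks began at the very start of a scaffold, and all of those that did were strong. A start within 10 bp of position 1 was found for 5 of 584 wico peaks, or 0.856% (0.279 to 1.99%), 5 of 435 star peaks, or 1.15% (0.374 to 2.66%), and 4 of 447 wild-type peaks, or 0.895% (0.244 to 2.28%). All of these 14 peaks were in the strongest 10% of their list, where 10% of peaks stand by definition, and the strongest 3 peaks of each list were among them. On the long scaffolds no peak started there, and the first listed peak began at position 27974 in wico, 27921 in star and 27690 in the wild type. The long scaffolds offer only 7 starts, against 810 for the smaller ones, so this absence is no contrast. A peak at position 1 may be cut off by the scaffold end, so its width is a lower bound. Their widths were 254 to 472 bp in wico, 185 to 334 bp in star and 265 to 504 bp in the wild type.

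The 14 peaks belonged to 7 regions, of which those on HiC_scaffold_14301, HiC_scaffold_26863 and HiC_scaffold_67512 were named after their values were seen. The 3 strongest, on HiC_scaffold_45804, HiC_scaffold_48926 and HiC_scaffold_34455, began within 10 bp of the scaffold start in every genotype and were the single region of their scaffold. The region of HiC_scaffold_1687 began at position 7 in wico, 30 in star and 6 in the wild type. A region of HiC_scaffold_14301 began at position 10 in wico, and just outside the limit at 13 in star and 14 in the wild type, with percentiles of 95.5, 98.0 and 96.2. The same scaffold held a further region at positions 575 to 1084, found in all genotypes at ranks 14 in wico, 4 in star and 8 in the wild type. It is named here because of these ranks, which were known when it was chosen.

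The remaining regions were held by star alone. They lay at positions 5 to 189 of HiC_scaffold_26863, with replicate signals of 7.45 and 7.78 at percentile 92.2, and at positions 11 to 214 of HiC_scaffold_67512, with 7.45 and 8.86 at percentile 94.2. Neither scaffold had a peak in wico or the wild type. Farther from the start the ranks were mixed. Peaks starting 11 to 100 bp in had median percentiles of 61.1 in wico (n = 19), 68.5 in star (n = 16) and 66.8 in the wild type (n = 10), with ranges from 2.91 to 96.7, 18.1 to 99.3 and 16.1 to 96.2. Those over 100 and up to 1000 bp in had medians of 55.7 in wico (n = 69), 42.2 in star (n = 59) and 75.1 in the wild type (n = 47), so that the medians did not fall steadily with distance in star or the wild type. Those more than 1000 bp in had medians of 44.1, 49.5 and 44.7.

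**Figure D4:**
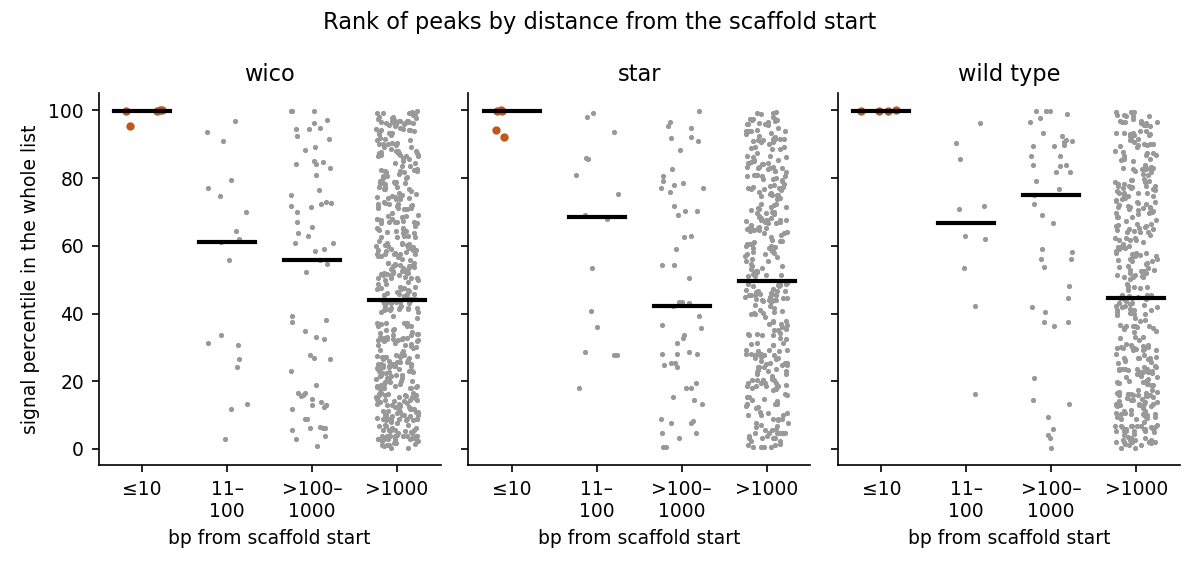
Signal percentile in the whole list (y axis) of peaks outside the 7 long scaffolds by distance of the peak start from the scaffold start (x axis, in bp), for wico, star and the wild type. Points are peaks, orange for those within 10 bp, and black lines are medians; the peaks within 10 bp stand at percentile 92.2 or above, and the peaks at 11 to 100 bp run from 2.91 to 96.7 in wico, 18.1 to 99.3 in star and 16.1 to 96.2 in the wild type.

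Most scaffolds held a single region. Of the 810 scaffolds, 680 held 1 region, 95 held 2, 26 held 3, 5 held 4, 2 held 5 and 2 held 6. Scaffolds with several regions thus numbered 130, or 16.0% (13.6 to 18.8%), and carried 310 of the 990 regions. The sharing classes had overlapping intervals on these and on the others. Regions in all genotypes made up 13.2% on scaffolds with several regions (9.66 to 17.5%) and 12.5% on scaffolds with 1 (10.1 to 15.2%), and single-genotype regions made up 60.6% (55.0 to 66.1%) and 66.9% (63.2 to 70.4%). The intervals also overlapped across scaffold lengths as far as these are known. Where the largest peak end was at most 1 kb, 70.2% of 104 regions were held by 1 genotype (60.4 to 78.8%), and where it was over 100 kb, 62.7% of 83 were (51.3 to 73.0%).

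Neighbouring regions on a scaffold lay a median of 7283.5 bp apart (4992 to 11043, n = 180 pairs), with a range from 105 to 290605 bp. Of these pairs, 55 were at most 1 kb apart, and 30 of the 55 belonged to the same sharing class. In 30 of the 55 pairs both regions held pieces of 1 divided peak, and the step that divided it is not stated. Among the other 25 close pairs 7 were of the same class, or 28% (12.1 to 49.4%), against 14 of the 82 pairs more than 10 kb apart, or 17.1% (9.66 to 27%). These intervals overlapped.

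The 5 scaffolds with most regions are described next, of which the last, HiC_scaffold_777, was taken from 5 scaffolds with 4 regions each by the highest summed wild-type signal. On HiC_scaffold_918, with 6 regions, those at positions 61094 to 61547 and 65435 to 65891 were in all genotypes, at percentiles of 97.4 and 96.3 in wico, 91.9 and 95.9 in star, and 96.9 and 96.6 in the wild type. Its other 4 regions were weaker, among them 1 of wico alone, 2 of wico with the wild type and 1 of star with the wild type, which stood at percentiles of 40.4 in star and 4.47 in the wild type. HiC_scaffold_2750 also held 6 regions. Those at positions 35915 to 36311 and 49113 to 49881 were in all genotypes. The former stood at percentiles of 67.0 in wico, 51.2 in star and 56.1 in the wild type. The latter had replicate signals of 18.7 and 11.1 in wico, 8.80 and 9.03 in star, and 9.85 and 13 in the wild type. The wico peak there is a piece of the same original peak as the wico peak at 48283 to 48827, where the wild type had a separate peak of 5.78 and 6.81 and star had none.

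HiC_scaffold_2016 and HiC_scaffold_4723 each carried 4 star peaks. HiC_scaffold_2016 held 5 regions, none of them in wico. Those at positions 496067 to 496531, 496754 to 497481 and 498017 to 498409 were pieces of a single star peak with replicate signals of 10.2 and 8.86, percentile 97.4, and the first and second of them were also pieces of a wild-type peak with 4.13 and 4.35, percentile 23.7. HiC_scaffold_4723 held 5 regions at least 59520 bp apart, of which 3 were star alone at percentiles of 63.3, 83.0 and 63.9, 1 was wico alone at 55.1, and that at positions 52302 to 52568 was in all genotypes. HiC_scaffold_777 had 4 regions, all with a wild-type peak and at wild-type percentiles of 19.8, 8.81, 11.2 and 20.1, and none of them in all genotypes.

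At the level of whole scaffolds, 130 had a peak in all genotypes, and 119 of these had a region shared by all 3. On 85 of the 119 that region was the only one of its scaffold, which fixes this outcome. Scaffolds with peaks of 1 genotype only numbered 206 for wico, 175 for star and 101 for the wild type. Of the 643 single-genotype regions, 455 were the only region of their scaffold, so no other genotype could have a peak there. Most single-genotype regions therefore had no peak of another genotype anywhere on their scaffold. This held for 221 of 281 wico regions, or 78.6% (73.4 to 83.3%), 189 of 222 star regions, or 85.1% (79.8 to 89.5%), and 103 of 140 wild-type regions, or 73.6% (65.5 to 80.7%). For the rest, the nearest peak of another genotype was a median of 10985.5 bp away in wico, 17195 bp in star and 5758 bp in the wild type, and 2, 2 and 5 regions had one within 500 bp.

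The strongest regions held by 1 genotype were named by rank. For wico they lay at positions 38855 to 39472 of HiC_scaffold_2723, with replicate signals of 14.2 and 9.16 at rank 133, at 129 to 465 of HiC_scaffold_1965, with 11.3 and 9.59 at rank 217, and at 317 to 706 of HiC_scaffold_1416, with 11.7 and 8.50 at rank 237. None of these scaffolds had a peak of another genotype, and the first and second of these intervals had been shortened. For star they were 2 pieces of 1 peak, at positions 22607 to 23285 and 23503 to 23605 of HiC_scaffold_3357, with replicate signals of 15.2 and 7.24 at rank 20, and the region at 6673 to 7365 of HiC_scaffold_6741, with 11 and 8.86 at rank 43. All of these star intervals had been shortened.

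For the wild type the region at positions 672 to 1355 of HiC_scaffold_3189 stood apart, with replicate signals of 10.3 and 14.5 at rank 37. The next were at positions 11020 to 11174 of HiC_scaffold_7189, with a shortened interval and 4.88 and 9.09 at rank 544, and 7145 to 7368 of HiC_scaffold_5645, with 4.70 and 8.63 at rank 648. A wico peak lay 492 bp from the region of HiC_scaffold_7189. Of regions held by exactly 2 genotypes, the strongest of wico with star, at positions 42400 to 42660 of HiC_scaffold_7741, had 6.96 and 6.33 in wico and 8.43 and 9.07 in star. That of wico with the wild type, at 20246 to 20946 of HiC_scaffold_923, had 11.3 and 11.8 in wico and 9.02 and 11 in the wild type, and a star peak lay 295 bp away. That of star with the wild type, at 15512 to 15893 of HiC_scaffold_3760, had 7.25 and 8.64 in star and 7.71 and 11.4 in the wild type, with both intervals shortened and a wico peak 5659 bp away.

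The lists hold technical marks that differed between the scaffold classes, and their part in the results above was not tested except where a value is given. Shortened intervals were found for 41 wico peaks on the smaller scaffolds, or 7.02% (5.08 to 9.40%), 43 star peaks, or 9.89% (7.25 to 13.1%), and 37 wild-type peaks, or 8.28% (5.89 to 11.2%), against 3.67%, 6.63% and 5.74% of the whole lists. The long scaffolds had 3.14%, 5.84% and 5.32%, and the differences of 3.88, 4.05 and 2.96 points had intervals above 0. Such peaks were a median of 510, 775 and 336 bp shorter than the replicate intervals together. With them left out, the difference between the scaffold classes was -19.5 points for star peaks with a wico peak and -13.2 points for wild-type peaks with a wico peak, close to the -19.3 and -13.1 points of all peaks.

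The second mark was in the signal values. In each replicate column many values were whole multiples of 1 step, to within 5e-05, with steps of 0.205 and 0.181 in wico, 0.196 and 0.216 in star, and 0.188 and 0.198 in the wild type. Both replicate values were on the step for 56.3% of wico peaks on the smaller scaffolds (52.2 to 60.4%), 67.8% of star peaks (63.2 to 72.2%) and 56.8% of wild-type peaks (52.1 to 61.5%). On the long scaffolds this was 27.3% in wico (25.9 to 28.8%), 39.6% in star (37.3 to 41.9%) and 25.3% in the wild type (23.7 to 27.0%). Within rank groups the differences were 29, 28 and 31.3 points.

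**Figure D5:**
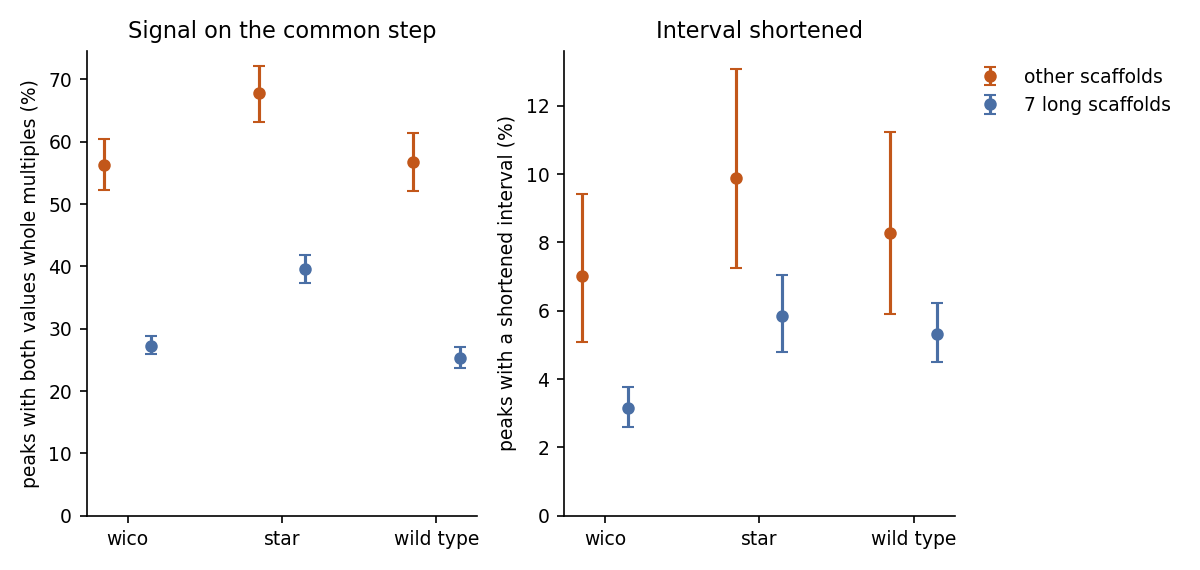
Left, share of peaks (%) with both replicate signals whole multiples of their column's step; right, share of peaks (%) listed with an interval shorter than in the replicates, for scaffolds outside the 7 long ones (orange) and the 7 long scaffolds (blue) in wico, star and the wild type. Bars are exact 95% intervals for counting error; the left shares are 56.3% against 27.3%, 67.8% against 39.6% and 56.8% against 25.3%.

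This mark went with sharing. On the smaller scaffolds both values were on the step for 62.6% of wico peaks overlapped by no other genotype and 50.5% of the other wico peaks, for 76.6% and 58.7% in star, and for 72.1% and 49.8% in the wild type. The difference between smaller and long scaffolds was also taken apart by this mark, into peaks with both values on the step and all other peaks. The other peaks include those with a single value on the step. For star peaks with a wico peak the difference was -18.2 points (-24.4 to -11.6) with both values on the step and -9.97 points (-18.7 to -1.37) for the other peaks. For star peaks with a wild-type peak it was -13.4 points (-19.8 to -6.79) and -4.33 points (-13.1 to 4.26), and for wild-type peaks with a wico peak -8.55 points (-15.6 to -1.37) and -4.97 points (-11.9 to 1.23). Overlap with star peaks went the other way where not both values were on the step. The differences there were 6.14 points (0.287 to 12.4) for wico peaks and 10.7 points (3.48 to 18.1) for wild-type peaks. With both values on the step they were -1.40 points (-6.47 to 4.10) and 0.659 points (-5.81 to 7.49). The deficit of shared star peaks was smaller where not both values were on the step, though the intervals of both strata overlapped. For overlap with the wild type its interval there included 0.

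The replicate signals were also compared. Across peaks, Spearman's rho of the replicate columns was 0.78 on the smaller and 0.77 on the long scaffolds in wico, 0.63 and 0.54 in star, and 0.67 and 0.67 in the wild type, over peaks that had all passed the reproducibility filter. In the wild type, the first replicate column exceeded the second at 27.3% of peaks on the smaller scaffolds and at 15.3% on the long ones. The scaffold classes were closer in wico, with 64.2% and 69.1%, and in star, with 34.9% and 31.7%.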

How the data were processed

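The sources used were 3 deposited peak lists without header lines, assigned to genotypes by the library numbers that the list names share with the labels. Per the submitters' processing notes, the tools included Bowtie2 2.4.2, MACS2 and bedtools; what each did, with which settings and on which genome build, is not stated there. Columns follow the idr layout, in which the irreproducible discovery rate (IDR) estimates the share of peaks not reproducible between replicates. The deposited signal of a peak is the sum of 2 replicate signals, of unstated unit. The deposited score equals −log2 of the global IDR times 125, with a cap of 1000, and the deposited −log10 global IDR is capped at 5; global IDR reached 0.1. The deposited peaks combine both replicates, and which column is which replicate is unlabelled. In each list 8 columns were not used.

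Overlap meant at least 1 shared bp. The overlap code and bedtools 2.31.1 differed on 0 of 19252 peak comparisons, and on simulated lists the code recovered the class of 1050 of 1050 regions. Positions count from 1. Regions were named by rank: the 5 strongest in all lists by wild-type signal, the 3 strongest of each single-genotype class, the strongest of each class of 2, the 5 scaffolds with most regions (ties by summed wild-type signal, then name), and those starting within 10 bp of position 1 in all 3 lists; those doing so in fewer lists were added after their values were seen. Intervals were computed with scipy 1.17.1 and numpy 2.4.6, tables with pandas 2.3.3 under Python 3.11.15. Alternatives covered the overlap rule, IDR, list length, rank and start distance; joining pieces and leaving out shortened peaks were added after seeing the data. The members, rules and comparisons were chosen with earlier results of these data known.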

Additional observations from a re-analysis of the deposited data

How the results depend on the processing

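No paired analysis was possible because the lists hold peaks already combined over both libraries of a genotype, with no replicate number on any column. Leaving out a replicate could not be done for that reason either. Of 133 values recomputed under other settings for 18 results, 96 moved by less than their counting interval and 37 moved by more. Stricter settings leave fewer peaks, and the cause of the moves was not tested. At a global IDR of at most 0.02, 12.2% of wico peaks lay on the smaller scaffolds, the overlapped shares there were 34.4% (wico by star), 51.9% (wico by wild type), 47.2% (star by wico) and 69.3% (wild type by wico), 17.3% of regions were in all lists and 59.2% in 1, 13.5% of scaffolds held several regions, and sites in 1 list had a median percentile of 30.4. With lists of equal length the wico share was 12.6%, the overlapped shares were 44.6% (wico by star), 65.4% (wico by wild type), 28.7% (star by wico), 32.2% (star by wild type) and 46.8% (wild type by star), 15.5% of regions were in all lists, and the median was 32.2. In the upper 50% of each list the overlapped shares were 36.2% (wico by star), 58.3% (wico by wild type), 45.9% (star by wico), 46.8% (star by wild type), 72.2% (wild type by wico) and 45.7% (wild type by star), 19.2% of regions were in all lists, 55.5% were in 1, and 12.7% of scaffolds held several. Requiring reciprocal overlap of at least 50% put 68.5% of regions in 1 list.

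The share of scaffolds with several regions was 12.7% with regions at most 500 bp apart merged, 13.6% with pieces of a peak joined, 12.9% without shortened peaks, 10.4% with star peaks alone and 11.5% with wild-type peaks alone. A start within 100 bp was found for 4.11% of wico, 4.83% of star and 3.13% of wild-type peaks. The median percentile of sites in 1 list was 31.1 by the first replicate column and 30.8 when ranked among the smaller-scaffold peaks. Peak lists without read counts do not show whether a site missing from a list was unbound or fell below its threshold, and 1 list per genotype leaves no measure of spread between samples.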
